A study of Mus musculus with 6 samples.

Results

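The genes of transforming growth factor beta (TGF-beta) and bone morphogenetic protein (BMP) signalling were described in the cochlear modiolus during spiral ganglion neuron (SGN) degeneration. Members were the protein-coding genes of the mouse annotation whose symbols begin with Bmp, Gdf, Inhb, Tgfb, Smad, Acvr or Ltbp in the forms that name these families, which gave 57 of 22028 protein-coding genes. Of the 57, 48 had at least 1 transcript in the deposited table and 36 had enough counts to be tested among 14118 genes. The 6 bulk libraries came from the modiolus, the central bone of the cochlea in which SGN bodies lie, of C57BL/6 mice, which the study describes as 8-week-old males. The 3 control libraries came from saline-treated mice, and the 3 degenerated libraries from mice taken on day 30 after kanamycin sulfate at 1 g/kg, an aminoglycoside antibiotic that damages hair cells, and furosemide at 0.4 g/kg, a loop diuretic given with it. No gene was altered by design in either group. Whether a library came from 1 mouse or from several is not stated in the sources read here, so that p-values measure the spread between these libraries, which may be partly technical.

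Ligands of this family are secreted dimers that join type II and type I serine/threonine kinase receptors, and the type I receptor then phosphorylates receptor-regulated Smads. BMPs and several growth and differentiation factors act through Smad1, Smad5 and Smad9, whereas TGF-betas and activins act through Smad2 and Smad3. Both groups of Smads enter the nucleus with Smad4, and Smad6 and Smad7 are inhibitors that their own pathways induce. BMP and TGF-beta signals pattern the developing inner ear and are known in adult tissues for their parts in bone turnover, matrix deposition and scarring.

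The libraries held 12480876 to 15549319 counts each. Markers of the labelled cell type were present, since all 17 SGN markers on the list were found in the table, and their summed CPM (counts scaled to a common normalized library total) ran from 12470 to 15910 in controls and from 7530 to 11120 in degenerated libraries. The tissue also held markers of glia, bone, marrow, vessels and epithelium. Neutrophil and marrow markers had summed CPM of 250.4, 12840 and 6375 in control replicates 1, 2 and 3 and 599.4, 1840 and 4490 in degenerated replicates 1, 2 and 3. Erythroid markers stood at 4524, 30960 and 15800 CPM and at 5237, 2516 and 12050 CPM in the same order, so that the amount of marrow and blood RNA differed among libraries of both groups. In bulk samples, fewer cells of a type and less RNA per cell cannot be told apart.

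The deposited table lists 99 of the 224 annotated transcripts of the members, and a gene's value is the sum over the listed ones, so that 11 of the 36 tested members were counted in full. No transcript was listed for 9 members, which are not analysed here, namely the receptors Acvr1b, Acvr2a and Tgfbr3, the ligands Bmp3, Bmp10, Gdf1, Gdf5 and Tgfb3, and Smad9. Under the count filter were 12 more, namely Tgfb2, Gdf2, Gdf3, Gdf7, Gdf9, Inhba, Inhbc, Inhbe, Acvr1, Acvrl1, Smad3 and Ltbp2. Gdf2 and Gdf3 were listed at 0 in all 6 libraries, which allows up to 3 counts in each for counting error alone. The listed transcripts of Tgfb2, Gdf3 and Gdf9 were processed or retained-intron ones, so their counts say nothing of the coding transcripts. Smad3 was covered by 3 of 5 annotated transcripts, of 406, 466 and 744 bases.

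Of the 36 tested members, 2 were called higher in degenerated libraries (5.56%), Bmp6 and Gdf6, and 0 were called lower. A gene was called where its unadjusted p was below 0.01 and its log2 fold change beyond 0.2 in size in edgeR's quasi-likelihood test, a rule that called 2.01% of all 14118 genes higher and 0.715% lower (2.73% in either direction). No member had a Benjamini-Hochberg adjusted p under 0.05 in this test. The smallest adjusted p among members was 0.211, while 8 members had an unadjusted p under 0.05, against 9.68% of all genes. The 3 degenerated libraries lay above all 3 controls in 11 members (30.6%), where 10.3% of all genes did so, and no member lay wholly below, where 7.37% of all genes did. Among the 11, Smad1 was counted from a noncoding transcript alone, and the main coding transcript of Smad5 overlapped between groups. The median log2 fold change was 0.15 over the tested members and -0.0034 over all genes. A positive estimate was found in 25 members (69.4%) and a negative one in 11, where 49.7% of all genes had a positive one (Ltbp4, at 0.0016, turned negative under both other scalings). Without degenerated replicate 2 the median of the members was 0.0785, and without control replicate 2, control replicate 3 or degenerated replicate 3 the calls were 1, Bmp6. Of all genes, 1.26%, 1.17% and 1.22% were called higher in these 3 fits. DESeq2 called 4 members higher by the same rule, Bmp6, Gdf6, Bmpr1a and Smad4, and 3.39% of all genes. The exact test of edgeR called 3, Bmp6, Gdf6 and Smad1, and 2.005% of all genes. Bmp6 had an adjusted p of 0.000304 by DESeq2 and of 0.00728 by edgeR's exact test. All tested members other than Bmp6 and Gdf6 are given as values, since they did not pass the call.

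**Figure D1:**
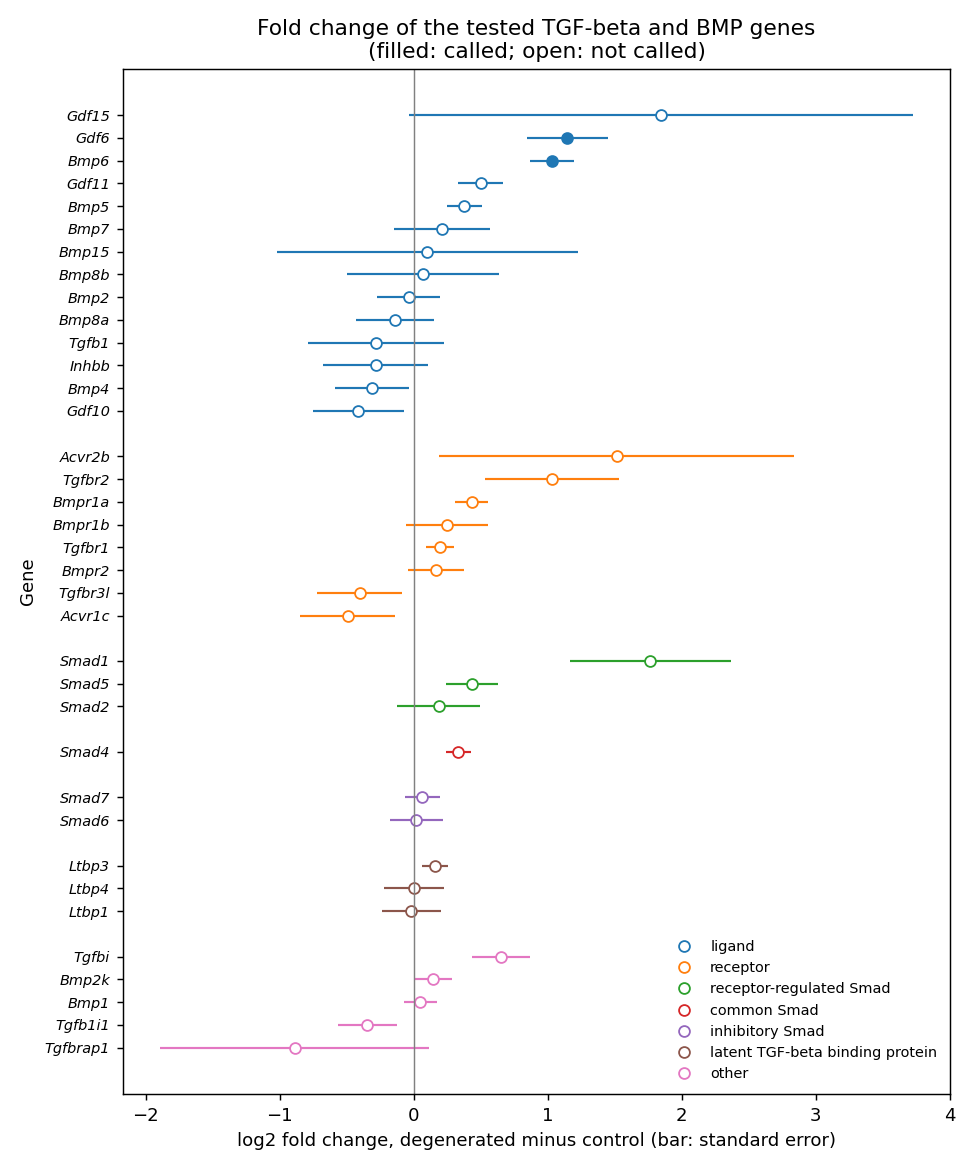
Log2 fold change of each of the 36 tested members (x axis, degenerated minus control, with its standard error as a bar), grouped by role, with filled points for called genes and open points for the others. Bmp6 and Gdf6 are the filled points, and the widest bars belong to Gdf15, Acvr2b, Bmp15 and Tgfbrap1.

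Among the ligands, 14 of 27 were tested, 2 of them called higher, and their median change was 0.086 on the log2 scale. Bmp6, a BMP ligand best known for setting the liver's output of the iron hormone hepcidin and for promoting bone formation, was the ligand with the highest level per length as a mean over all 6 libraries. Bmp6 (ENSMUSG00000039004, chromosome 13 from 38345107 to 38500302, GRCm38) stood at 170.6, 128.1 and 118.4 CPM in control replicates 1, 2 and 3 and at 299.3, 291.4 and 260.7 CPM in degenerated replicates 1, 2 and 3. Every degenerated library was above every control library, and the lowest degenerated value exceeded the highest control value by more than the range within either group. The control mean of 139 ± 27.8 CPM rose to 284 ± 20.4 CPM (SD over 3 libraries each), or 2.04-fold. On the log2 scale this was 1.03 with a standard error (SE) of 0.17, with an unadjusted p of 0.000701 by edgeR's test (adjusted p = 0.211). The counts came from 1 protein-coding transcript of the 3 annotated.

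Gdf6, a BMP-like ligand needed for joint, skull and eye formation, was the second called gene. Gdf6 (ENSMUSG00000051279, chromosome 4 from 9844372 to 9862345, 1 transcript annotated and listed) was at 61.3, 48.3 and 50.0 CPM in control replicates and at 70.9, 127.6 and 155 CPM in degenerated replicates 1, 2 and 3. Degenerated replicate 1 was close to the controls, and the other degenerated libraries were well above every control. Its mean was 53.2 ± 7.09 CPM in controls and 118 ± 42.9 CPM in degenerated libraries (SD over 3 libraries each), 2.22-fold or 1.15 on the log2 scale with a standard error of 0.30, with an unadjusted p of 0.0089 by edgeR's test (adjusted p = 0.362). The call was kept in 1 of the 6 fits that left out a library, the one without degenerated replicate 1, with log2 fold changes of 0.90 to 1.40 over those fits.

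**Figure D2:**
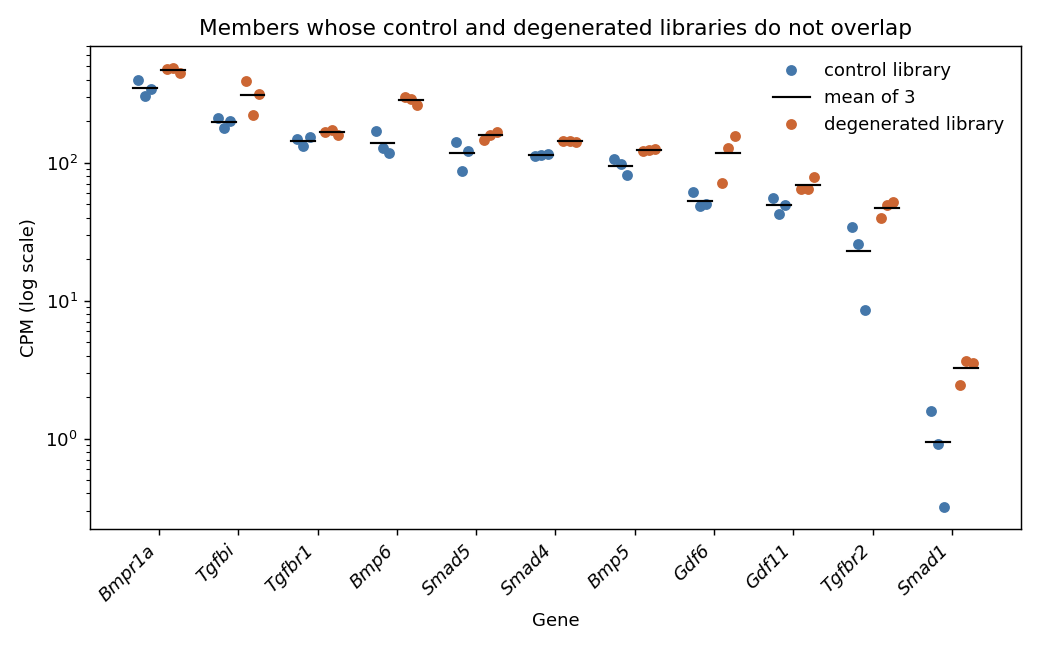
CPM (y axis, log scale) of the 11 members whose control (blue) and degenerated (orange) libraries did not overlap, 1 point per library with the mean of 3 as a line. The called genes Bmp6 and Gdf6 have means of 139 and 53.2 CPM in controls and 284 and 118 CPM in degenerated libraries, and Smad1 lies lowest, at 0.32 to 3.66 CPM.

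Gdf11 and Bmp5 were not called and had groups that did not overlap. Gdf11, a ligand related to myostatin that limits neurogenesis in the olfactory epithelium, was at 55.5, 42.5 and 48.9 CPM in controls and at 64.2, 64.7 and 78.9 CPM in degenerated libraries (log2 fold change 0.50, SE 0.17, edgeR adjusted p = 0.437). Bmp5, a BMP of the same subgroup as Bmp6 and Bmp7, was at 105.7, 97.5 and 81.4 CPM and at 121.3, 122.6 and 125.8 CPM (log2 fold change 0.38, SE 0.13, edgeR adjusted p = 0.451). The degenerated libraries of Bmp5 differed among themselves by less than the controls did.

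The other ligands had groups that overlapped. Gdf10, a TGF-beta-like ligand second to Bmp6 in mean level per length over all 6 libraries, was at 327.9, 194.8 and 194.9 CPM in controls and at 260.2, 130.4 and 148.3 CPM in degenerated libraries, with replicate 1 the highest in each group. Bmp7 was likewise highest in replicate 1 of each group, at 180, 109.4 and 89.5 CPM and at 201.9, 138.8 and 98.0 CPM. Bmp4, a BMP that patterns the otic vesicle, was at 51.0, 48.6 and 39.4 CPM in controls and at 24.1, 43.0 and 44.8 CPM in degenerated libraries. Gdf15, a ligand that cells release under stress, was at 0 in control replicate 1 and degenerated replicate 3 and at 15.2 CPM in degenerated replicate 2. Bmp15 and Bmp8b stayed under 2 CPM in all libraries.

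Tgfb1, the main TGF-beta of immune and blood cells, was at 51.9, 154.6 and 73.8 CPM in controls and at 59.5, 51.8 and 119.7 CPM in degenerated libraries. Its highest values were in control replicate 2 and degenerated replicate 3, and the marrow markers were at 12840 and 4490 CPM in these 2 libraries. Control replicate 3 had more marrow marker RNA than degenerated replicate 3, at 6375 CPM, and less Tgfb1. The part of marrow RNA in the level of Tgfb1 was not tested. Tgfb2 had 3 to 8 counts per library, from a processed and a retained-intron transcript of 6 annotated, and its coding transcripts are not analysed here.

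**Figure D3:**
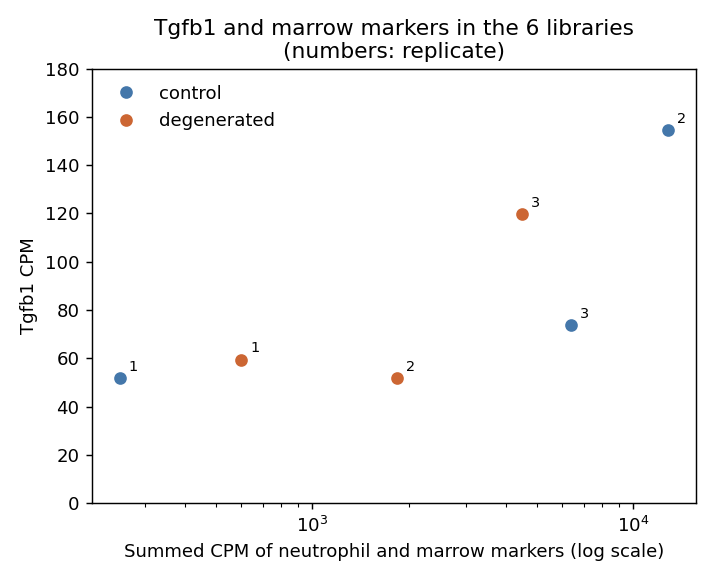
CPM of Tgfb1 (y axis) against the summed CPM of 6 neutrophil and marrow markers (x axis, log scale), 1 point per library, numbered by replicate. The library with the most marrow RNA, control replicate 2, has the highest Tgfb1 at 154.6 CPM, and the 3 libraries with the least marker RNA have 51.8 to 59.5 CPM. Control replicate 3 has more marker RNA than degenerated replicate 3 and less Tgfb1, at 73.8 CPM.

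The receptors were 13 members, of which 8 were tested and 0 were called. Groups did not overlap in 3 of the 8, all higher in degenerated libraries, where 10.3% of all genes lay so. Against a median of -0.0034 for all genes, that of the 8 receptors was 0.22 on the log2 scale. Bmpr1a, a type I BMP receptor, had the highest level per length among them, at 110 ± 23.8 TPM (a share of transcripts per length, computed from the counts and the lengths of the listed transcripts) in controls and 160 ± 10.2 TPM in degenerated libraries. Its values were 398.9, 306.4 and 341.2 CPM in controls and 479.0, 486.4 and 447.4 CPM in degenerated libraries (log2 fold change 0.43, SE 0.13, edgeR adjusted p = 0.394). DESeq2 called it, as did edgeR's test without control replicate 1. Bmpr2, the type II receptor for BMPs, was second per length and overlapped, at 543.6, 367.1 and 368.2 CPM and at 424.9, 573.2 and 438.2 CPM.

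Tgfbr1 and Tgfbr2, the type I and type II receptors for TGF-beta, had degenerated libraries above all controls and were not called. Tgfbr1 was at 149.1, 131.9 and 152.9 CPM in controls and at 166.2, 172.8 and 157.8 CPM in degenerated libraries, with control replicate 3 close to the lowest degenerated value (log2 fold change 0.19, SE 0.11, edgeR adjusted p = 0.614). Tgfbr2 was at 34.4, 25.9 and 8.49 CPM and at 39.5, 49.5 and 51.9 CPM (log2 fold change 1.03, SE 0.50, edgeR adjusted p = 0.576), and its controls spread more widely than its degenerated libraries. The remaining receptors overlapped, and Acvr2b and Acvr1c, receptors of the activin group, were under 10 CPM in all libraries.

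Start-site windows of genes in the non-overlapping group are shown so that the sequences next to the starts of genes that lay higher in all 3 degenerated libraries can be compared. RefSeq windows (GRCm38.p6) were available for 9 of the 11 genes, not for Gdf6 and Smad4. The 250 bases before a start are given for Gdf11 and for the receptor pair, the first Tgfbr1 window and the Tgfbr2 window, chosen from the 5 of 12 windows that hold no base of an annotated exon. The other 2 of these were a second Tgfbr1 window (52.8% G and C, no motif match) and a Smad5 window (60.0% G and C, 1 GC box). In the sequences, capitals mark matches to 6 motifs searched on both strands. The 3 windows are chr10:128891719-128891968 on the minus strand, chr4:47352972-47353221 on the plus strand and chr9:116175364-116175613 on the minus strand.
Gdf11: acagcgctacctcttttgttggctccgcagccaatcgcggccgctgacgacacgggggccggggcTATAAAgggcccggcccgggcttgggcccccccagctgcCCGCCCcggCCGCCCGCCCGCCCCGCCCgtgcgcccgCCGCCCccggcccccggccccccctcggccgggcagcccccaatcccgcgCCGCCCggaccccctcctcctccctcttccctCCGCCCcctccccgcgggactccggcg
Tgfbr1: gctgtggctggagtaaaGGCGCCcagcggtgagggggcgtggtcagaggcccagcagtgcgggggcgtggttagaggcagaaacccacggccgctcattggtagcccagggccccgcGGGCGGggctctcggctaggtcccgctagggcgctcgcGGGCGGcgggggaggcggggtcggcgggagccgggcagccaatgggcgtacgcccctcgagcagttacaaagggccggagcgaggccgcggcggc
Tgfbr2: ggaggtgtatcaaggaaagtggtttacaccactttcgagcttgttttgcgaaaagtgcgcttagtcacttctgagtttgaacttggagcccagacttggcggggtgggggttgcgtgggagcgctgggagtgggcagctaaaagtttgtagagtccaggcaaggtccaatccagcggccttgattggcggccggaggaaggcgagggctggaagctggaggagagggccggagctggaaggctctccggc
The Gdf11 window had 81.2% G and C, a TATAAA and 8 matches to GGGCGG, the GC box that Sp1 family factors bind, some of which overlapped each other. The Tgfbr1 window had 74.8% G and C, with 2 GC boxes and 1 GGCGCC, the core of a GC-rich element that BMP Smads are known to bind. The Tgfbr2 window had 58.4% G and C and none of the letters searched. Across the 12 windows of the 9 genes, 9 held a GC box and 4 held GGCGCC, against 32.7% and 9.59% of 32851 windows of the same length, and the median over all windows was 52.4% G and C. The 12 are not separate units, since Smad5 and Tgfbr1 have several each and Smad5 windows share bases and a GC box. All but the Bmp5 window exceeded that median, and the Bmp6 window lay wholly in annotated exon. Windows of the other members, or of like G and C content, were not compared. TATAAA was in 1 of the 12 and in 12.4% of all windows. The AP-1 letters TGANTCA, the STAT letters TTCNNNGAA and the palindromic Smad letters GTCTNGAC were in 0 of the 12, against 6.75%, 7.02% and 1.47% of all windows. Matches are descriptions of letters and say nothing of binding.

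The Smads were 8 members and 6 were tested, none was called, all 6 estimates were positive, and 3 genes had groups that did not overlap. Those were Smad4, Smad5, whose main coding transcript overlapped, and Smad1, counted from a noncoding transcript alone. Over all genes, 49.7% had a positive estimate and 10.3% had degenerated libraries above all controls. Smad6 and Smad7 had estimates of only 0.019 and 0.064. The estimates of Smad2 and Smad6 turned negative in 1 and 3 of the 6 fits that left out a library. Smad4, the common partner, was at 112.1, 114.1 and 114.7 CPM in controls and at 144.5, 142.9 and 142.0 CPM in degenerated libraries. Relative to the means, these were the narrowest spreads among the 11 non-overlapping members, 114 ± 1.39 against 143 ± 1.29 CPM (SD over 3 libraries each). The log2 fold change was 0.33, its standard error 0.092, the unadjusted p 0.0106 and the adjusted p 0.375 in edgeR's test. The gene lay just outside the p threshold in the edgeR test and was called by DESeq2 and with a mean-count filter of 10.

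Smad5, the only BMP Smad with coding transcripts in the table, was at 141.5, 86.7 and 122.4 CPM in controls and at 147.1, 159.7 and 167.2 CPM in degenerated libraries (log2 fold change 0.43, SE 0.19, edgeR adjusted p = 0.554). Smad1, the other BMP Smad in the table, was at 1.59, 0.92 and 0.32 CPM and at 2.46, 3.66 and 3.55 CPM (log2 fold change 1.77, SE 0.60, edgeR adjusted p = 0.439). Its only listed transcript, of 5 annotated, is a noncoding processed transcript with 5 to 52 counts per library, and its coding transcripts are not analysed here. Smad2, which carries TGF-beta and activin signals, overlapped at 10.2, 10.4 and 11.7 CPM and at 15.5, 8.17 and 13.1 CPM.

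The inhibitory Smads, which BMP and TGF-beta signals induce, overlapped between groups. Smad6 was at 63.9, 72.5 and 48.3 CPM in controls and at 53.9, 68.2 and 65.0 CPM in degenerated libraries. Smad7 was at 55.6, 50.0 and 51.4 CPM and at 52.2, 57.4 and 54.6 CPM.

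**Figure D4:**
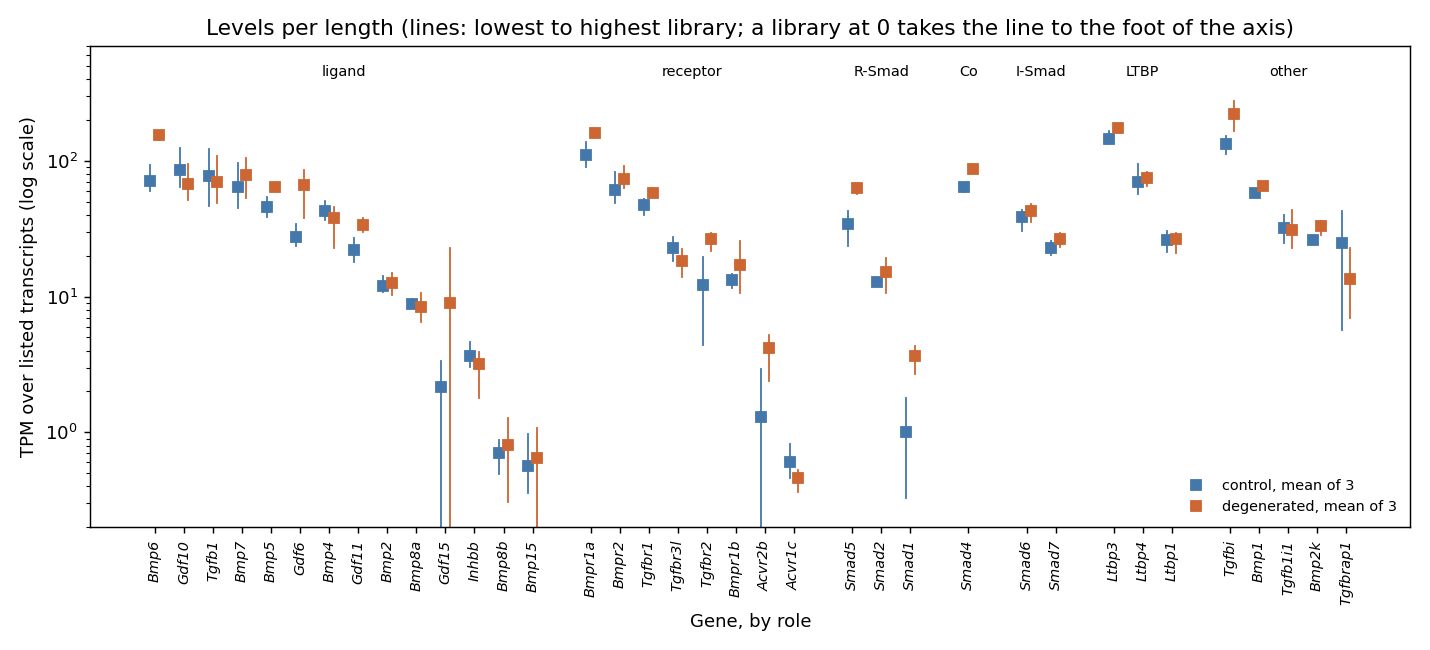
TPM over the listed transcripts (y axis, log scale) of the 36 tested members by role, with squares for the mean of the 3 control (blue) and 3 degenerated (orange) libraries and lines from the lowest to the highest library, drawn to the foot of the axis where a library is at 0. Tgfbi, Ltbp3 and Bmpr1a have the highest mean levels, and Smad1, Acvr1c, Bmp8b and Bmp15 are among the lowest.

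Latent TGF-beta binding proteins hold the latent ligand in the extracellular matrix, and 3 of 4 were tested. Ltbp3, which binds latent TGF-beta in bone and cartilage, had the highest level per length of the 3 and was at 438.6, 405.2 and 393.1 CPM in controls and at 474.9, 436.2 and 472.7 CPM in degenerated libraries, from 1 of 12 annotated transcripts. Ltbp4 was at 161.7, 122.0 and 135.3 CPM and at 179.6, 135.5 and 104.3 CPM. The median log2 fold change of the 3 genes was 0.0016 and none was called.

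The symbols of 5 members match while the proteins have other functions. Tgfbi, a secreted matrix protein that TGF-beta induces, had the highest mean level per length of all members over the 6 libraries, at 133 ± 19.6 TPM in controls and 222 ± 54.3 TPM in degenerated libraries. It was at 210.1, 177.6 and 201.4 CPM in controls and at 393.2, 220.5 and 312.1 CPM in degenerated libraries (log2 fold change 0.65, SE 0.22, edgeR adjusted p = 0.438). Degenerated replicate 2 was near the controls, and the gene was called without that library. Bmp1, a protease that cleaves procollagen and chordin and is no BMP ligand, was at 103.8, 130.1 and 117.9 CPM and at 125.2, 114.6 and 124.4 CPM.

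Single transcripts showed patterns that the sums did not, and those given were chosen after their values were seen. Of 57 tested transcripts of members, 1 was called higher and 0 lower, where 1.79% of all 26065 tested transcripts were called in either direction. Coding transcripts of Ltbp1 (117, 122 and 90 counts against 29, 48 and 70) and Tgfb1i1 lay wholly lower in degenerated libraries. That of Tgfb1i1, with 91.8% of the gene's control counts, was at 31.4, 23.1 and 27.25 CPM and at 20.9, 9.86 and 18.9 CPM. In Smad5, a transcript with a retained intron had 1, 6 and 37 counts in controls and 198, 167 and 199 counts in degenerated libraries, or 0.833% and 8.63% of the gene's counts (log2 fold change 3.80, SE 1.17, edgeR adjusted p = 0.60 over 26065 transcripts, of which 1.79% were called). The main coding transcript of Smad5 was at 138.6, 81.7 and 117.2 CPM and at 133.6, 133.7 and 151.1 CPM, which overlapped. In Bmp8a, 1 coding transcript had 5, 9 and 7 counts in controls and 29, 36 and 11 counts in degenerated libraries, while the other had 117, 144 and 135 and then 73, 76 and 123 counts. Bmp8a and Bmp8b are closely related paralogs, so the split of reads between them is uncertain.

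Libraries of the same group differed widely in a further 3 genes. Acvrl1, a type I receptor of endothelium for BMP9 and BMP10, had 568 counts in control replicate 1 and 2 to 18 counts in the other libraries. The adaptor gene Tgfb1i1 had 1 coding transcript at 15.3 CPM in degenerated replicate 2 and under 0.4 CPM in the other libraries, while the sum over its transcripts ran from 19.8 to 35.0 CPM. Tgfbrap1, which takes part in endosome trafficking, was at 83.9, 80.7 and 8.68 CPM in controls and at 8.0, 24.7 and 61.0 CPM in degenerated libraries.

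**Figure D5:**
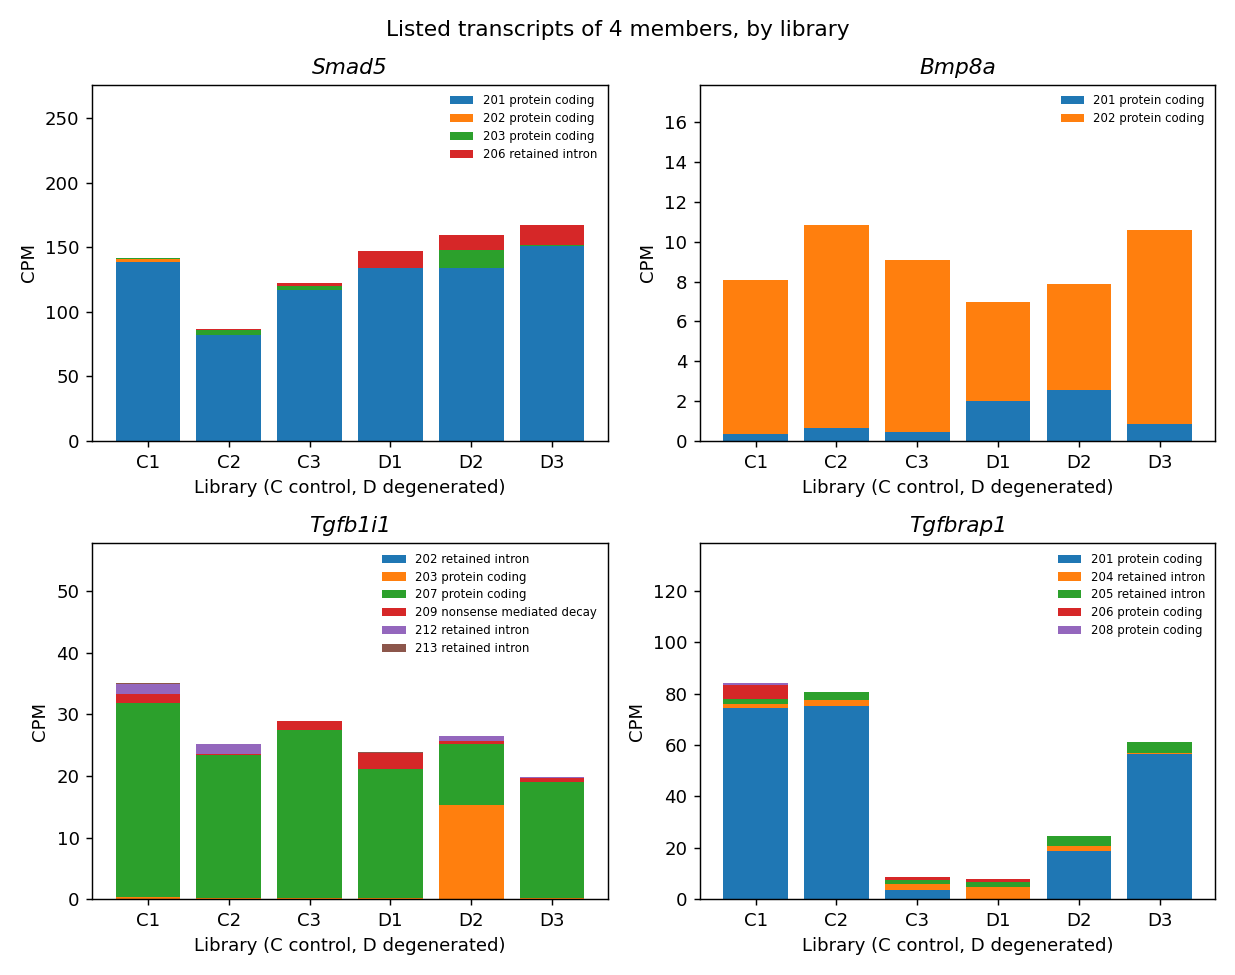
CPM of each listed transcript (stacked colours) in 4 members, 1 bar per library (C control, D degenerated). The retained-intron transcript of Smad5 is visible in the 3 degenerated libraries, and the main transcript of Tgfbrap1 is at 3.57 CPM in control replicate 3 and at 0 in degenerated replicate 1.

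Other genes of the pathway came from 4 lists. Antagonists and extracellular regulators, such as noggin, chordin and follistatin, had 27 of 42 genes tested, 0 called and a median log2 fold change of -0.11 (2 with an unadjusted p under 0.05 in edgeR's test, 0 called by DESeq2). Among other ligands and co-receptors, 11 of 18 were tested and 0 were called, with a median of 0.17 (1 with an unadjusted p under 0.05 in edgeR's test, 1 called by DESeq2). Intracellular regulators had 30 of 37 tested, 1 called higher and a median of 0.19. Of the genes known as targets of Smads, 25 of 41 were tested, 2 were called higher and 0 lower, with a median of 0.046, and 3 of the 41 are also members. Shares of all genes called are those given above.

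The called regulator was Usp9x, a deubiquitinase that restores Smad4 function by removing its ubiquitin. It was at 356.4, 274.7 and 283.2 CPM in controls and at 443.0, 514.5 and 416.3 CPM in degenerated libraries (log2 fold change 0.59, SE 0.15, unadjusted p of 0.00685 by edgeR's test, adjusted p = 0.342). The call was kept in 1 of the 6 fits that left out a library, the one without control replicate 1. Of the targets, Ccn2, the connective tissue growth factor, was at 352.2, 365.6 and 510.3 CPM and at 692.9, 700.9 and 608.8 CPM (log2 fold change 0.71, SE 0.17, unadjusted p of 0.00595 by edgeR's test, adjusted p = 0.342), and it was called in 1 of 6 such fits, the one without control replicate 3. Lox, a lysyl oxidase that crosslinks collagen, was at 205.7, 182.0 and 179.3 CPM and at 387.0, 457.2 and 433.9 CPM (log2 fold change 1.17, SE 0.11, unadjusted p of 4.07e-05 by edgeR's test, adjusted p = 0.0719), and it was called in 6 of 6. Id1 and Id2, direct targets of BMP signals, had unadjusted p-values of 0.663 and 0.480 in edgeR's test. Id1 had a log2 fold change of 0.048 (SE 0.10). Id2 spread widely, at 163.0, 19.0 and 148.5 CPM in controls and at 5.95, 336.1 and 326.4 CPM in degenerated libraries (log2 fold change 1.02, SE 1.35). Its test cannot tell a change from none.

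Markers of some other cell types moved between the groups in the same libraries. Those of Schwann and satellite glia, chondrocytes, fibroblasts and endothelium had summed CPM that overlapped and 0 genes called. Their median log2 fold changes were -0.028, -0.0971, -0.073 and 0.0991. Macrophage markers had summed CPM of 432 to 504 in controls and 551 to 732 in degenerated libraries, with 2 of 6 tested genes called higher (C1qb and C1qc). Supporting cell and epithelial markers ran from 1682 to 1918 CPM and from 2106 to 2563 CPM, with Cdh1 of 8 tested called higher, and stria vascularis markers from 1470 to 1942 CPM and from 2065 to 2931 CPM, with Kcnj10 of 4 called higher. Hair cell markers ran from 830 to 1156 CPM in controls and from 565 to 710 CPM in degenerated libraries, with 3 of 9 tested called lower and Chrna9 at 0 in all libraries. Osteoclast markers ran from 285 to 475 CPM and from 56.1 to 152 CPM, with none of 4 called. Of the osteoblast and osteocyte markers, 2 of 8 tested were called lower (Bglap and Bglap2), with summed CPM of 7190 to 8974 and of 6841 to 7613 and a median log2 fold change of -0.60. Among 16 tested SGN markers, Calb2 and Pvalb were called lower. Pvalb also stands in the skeletal muscle list, where it was the 1 gene called of 4 tested. Skeletal muscle markers ran from 732 to 1310 CPM in controls and from 330 to 522 CPM in degenerated libraries, with a median log2 fold change of -3.31. The part of these shifts in the levels of Bmp6, Gdf6 and the other members was not tested.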

How the data were processed

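Bulk RNA-seq of the modiolus gave 3 control and 3 degenerated libraries, grouped by the sample labels. Hisat2 alignment and StringTie were used by the authors, who deposited raw counts per Ensembl transcript that are not normalized; the submitters' processing notes also name Bowtie 0.12.2, mm8 and mm10, with no role given. The table lists 65535 transcripts, and counts of the 65272 that matched GENCODE M21 (GRCm38) were summed per gene, although the comparison had been designed for counts per gene. The 263 others held 0.125% of counts. The 3 degenerated were compared with the 3 control libraries over 14118 genes by edgeR 4.0.16 under R 4.3.3, using filterByExpr, TMM factors and the robust quasi-likelihood F test with no covariate. Calls needed an unadjusted p below 0.01 and a log2 fold change beyond 0.2 in size, criteria that the study states for its comparison of knockout with wild-type mice and not for this one, and adjusted p-values (Benjamini-Hochberg) cover all genes tested. Standard errors were derived from the F statistic and the estimate. TPM were computed over the listed transcripts and their annotated lengths. Depth was 12480876 to 15549319 counts per library over the listed transcripts, where 0 counts allow up to 3. Scripts were tested on simulated data.

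Members, lists and motifs were chosen with earlier results of these data known. Named with fold changes are called members and called genes of the other lists, with values per library also members whose groups do not overlap and the 2 members with the highest TPM in each role. Any further gene named was picked with its values in view. Alternatives were limma-voom (limma 3.58.1), DESeq2 1.42.0, the exact test of edgeR, RLE and upper-quartile scaling, 2 other filters, the replicate number as a block, each library left out in turn, genes with every transcript listed, protein-coding transcripts alone, a term that sets control 1 and degenerated 1 and 2 apart from the other 3 libraries, transcripts as deposited, and CPM by total count. The first axis of a principal component analysis of 500 genes held 30.2% of the variance and did not divide the groups. Control 1 and degenerated 1 and 2 lay at -46.8, -14.1 and -22 on it. Control 2, control 3 and degenerated 3 lay at 41.7, 22.3 and 19. Groups were called non-overlapping on CPM with TMM factors.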

Additional observations from a re-analysis of the deposited data

How the results depend on the processing

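Members called higher numbered 2 in edgeR's test, 4 with DESeq2 (3 of them at an adjusted p under 0.05) and 3 with the exact test (1 at an adjusted p under 0.05). The call rule took 2.01%, 3.39% and 2.005% of all genes higher in these tests. Shares of all genes at that adjusted p are not given here for DESeq2 and the exact test. Members called numbered 3 with a mean count of at least 10 (1.98% of all genes), 2 with RLE and upper-quartile scaling (1.83% and 1.88%) and 2 with no filter (1.26%). They numbered 1 each with limma-voom (2.03%), the replicate block (1.13%), genes with every transcript listed (2.36%), protein-coding transcripts only (1.75%) and the term for control 1 and degenerated 1 and 2 (1.665%). With a library left out they numbered 1 to 2 (0.981% to 2.31%), and 1 with transcripts as deposited (1.79% of transcripts in either direction). None was called lower in any of the 17 alternatives. Bmp6 was called in all 16 alternatives that tested it, with log2 fold changes of 0.92 to 1.19, and Gdf6 in 8 of 17. The median log2 fold change of the members, 0.15, was 0.0945 with every transcript listed, 0.11 with the term for 3 libraries, and 0.0785 to 0.20 with a library left out. Antagonists had 0 calls and 0 to 2 with a library left out. Other ligands and co-receptors had 0 calls, 1 with DESeq2 and 0 to 1 with a library left out. Intracellular regulators had 1 call, 2 with DESeq2, 0 with the exact test, the replicate block or every transcript listed, and 0 to 2 with a library left out. Targets had 2 calls, 1 with the replicate block or the term for 3 libraries, and 1 to 2 with a library left out. The count of 11 non-overlapping members was 11 by total count alone. The causes of these differences were not tested, beyond the fewer genes or libraries that some alternatives hold. Deviations from the group means of same-numbered libraries correlated at 0.143, -0.0856 and 0.0656 across genes. Control replicates 1 and 3 correlated best with the degenerated library of their own number, and control replicate 2 with degenerated replicate 3 (0.219). With 3 libraries per group, these values cannot tell whether replicate numbers pair the libraries. No direction reversed among the 11 non-overlapping members and Ccn2, Lox and Usp9x. These genes were picked for not overlapping or for being called in the same libraries. Their choice nearly fixed this outcome, so it adds no separate support. Depth limits Smad1, Gdf15 and Bmp15, which had few counts.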

Other observations

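Genes of the 4 other pathway lists with an unadjusted p under 0.05 and no call were chosen after their values were seen. Among antagonists, Twsg1, which helps chordin hold BMPs, was at 477.5, 332.8 and 371.3 CPM in controls and at 582.2, 517.2 and 501.3 CPM in degenerated libraries. Crim1, a transmembrane protein that tethers BMPs, was at 191, 196.9 and 163.9 CPM and at 217.4, 309.2 and 249.8 CPM. Inha, the inhibin alpha subunit that opposes activins, lay lower in degenerated libraries, at 33.9, 33.6 and 29.7 CPM in controls and at 24.1, 23.0 and 24.7 CPM. Among intracellular regulators, Ppm1a, a phosphatase that dephosphorylates receptor-regulated Smads, was at 104.6, 98.6 and 111.7 CPM and at 120.7, 132.1 and 136.1 CPM, and Sp1, a factor that binds GC boxes, was at 181.2, 181.5 and 146.4 CPM and at 201.5, 217.0 and 213.7 CPM. Ube2o, a ubiquitin enzyme that acts on Smad6, overlapped at 41.0, 51.7 and 21.2 CPM and at 21.3, 18.0 and 16.6 CPM. Among targets, Snai2, a repressor of epithelial genes, was at 4.10, 6.16 and 7.59 CPM and at 2.53, 3.87 and 2.84 CPM, and Col1a2, a chain of type I collagen, overlapped at 1608, 1505 and 1253 CPM and at 991, 865 and 1292 CPM. The groups of Twsg1, Crim1, Inha, Ppm1a, Sp1 and Snai2 did not overlap, and no adjusted p in edgeR's test was under 0.05.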
